A study of Arabidopsis thaliana with 72 samples.

Results

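The 43 genes described here are root hair and extensin genes of Arabidopsis, given as a list of locus identifiers. A gene stayed on the list when at least 1 of the 72 libraries held a count of 10 or more. All 43 met this, out of 27655 genes in the count table, and all 43 were among the 21042 genes that passed the filter on low counts. The least counted members were RSL2, with at most 59 counts in a library, and AT5G26080, with at most 70, and no member had a count of 0 in any library. The list was drawn up with measured responses to N-hydroxypipecolic acid (NHP) in view, and its rule does not say which. It was assumed that these were the responses of wild-type (Col-0) seedlings, so the Col-0 values are given as a description and tests were made in the sid2-2 and fmo1-1 libraries. Were the mutant responses used as well, the counts and p-values below would not be independent of the choice of genes.

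Root hairs are tubular outgrowths of single epidermal cells of the root, which extend by growth at the tip. The bHLH transcription factor RHD6 acts early in hair-forming cells, and its relatives RSL2 and RSL4 drive hair elongation. Downstream of these factors stand genes for expansins, which loosen the wall, and for extensins, hydroxyproline-rich wall proteins that peroxidases can crosslink. NHP is a mobile signal of systemic acquired resistance that the monooxygenase FMO1 makes from pipecolic acid. It is known for its action in leaves.

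Whole seedlings of Col-0, sid2-2 and fmo1-1 were grown in liquid MS medium and treated at 10 days after germination with 0.5 mM NHP or with MS medium as mock. They were collected at 4 times between 15 min and 6 h (the others being 30 min and 3 h), with 3 libraries in each of the 24 groups and the seedlings of 1 well pooled for each library. The sid2-2 mutant is impaired in ICS1, an enzyme of salicylic acid (SA) synthesis, and fmo1-1 in FMO1. Each mutant is represented by 1 allele. Total counts per library ranged from 19618319 to 28382977. Levels are given as CPM, the read count scaled to the library size after TMM normalization. ICS1 stood at 0.433 to 1.52 CPM over the 24 sid2-2 libraries and at 7.36 to 13.1 CPM over those of Col-0. FMO1 stood at 0.0419 to 0.5 CPM in fmo1-1 and at 1.77 to 4.57 CPM in Col-0. Replicate 3 of the sid2-2 NHP libraries of 30 min carries a time tag of 3 h but a title of 30 min, and was kept by its title. Without it, 32 members fell in sid2-2 at 30 min, against 33 with it. The sample setup table lists a batch for each Col-0 and sid2-2 library. No batch holds mock and NHP libraries of sid2-2 from the same time, so that within sid2-2 batch and NHP cannot be told apart. That setup lists no batch for the fmo1-1 libraries, so it is not known whether batch and NHP can be told apart in fmo1-1. In RNA of whole seedlings, fewer hair cells and less RNA per hair cell cannot be told apart.

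Some promoters of these genes carry the root hair element, a sequence to which RSL4 is known to bind. It was searched on both strands in the 500 bases before the annotated gene start in TAIR10.1. A match to its consensus was present in 16 of the 43 members (37.2%) and in 400 of 27443 protein-coding genes (1.46%). Several RHS (root hair specific) genes were originally found with the help of this element, so that the share among the members is not independent of how such genes came to be known. All 4 proline-rich and leucine-rich repeat extensin genes and both expansin genes held a match, against 0 of the 16 extensins. The windows below are from genes whose response is described further on. They are shown 5′ to 3′ on the strand of the gene, with the match in capitals and 20 bases on either side.
EXPA7 (chr1:4276407-4276463, plus strand): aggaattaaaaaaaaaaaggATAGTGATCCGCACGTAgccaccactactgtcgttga
EXPA18 (chr1:23331503-23331558, plus strand): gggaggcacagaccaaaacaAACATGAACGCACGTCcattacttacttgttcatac
PRP3 (chr3:23182535-23182591, plus strand): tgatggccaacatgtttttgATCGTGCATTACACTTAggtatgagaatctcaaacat
LRX1 (chr1:4069879-4069934, plus strand): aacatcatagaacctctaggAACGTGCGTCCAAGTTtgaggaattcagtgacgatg
G3Pp2 (chr4:12920616-12920671, plus strand): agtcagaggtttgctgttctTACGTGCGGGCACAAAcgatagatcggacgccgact
In EXPA7 and EXPA18 the match lay on the strand of the gene, and in PRP3, LRX1 and G3Pp2 on the opposite strand. The distance from the match to the gene start was 61 bases in EXPA7, 24 in EXPA18, 150 in PRP3, 77 in LRX1 and 90 in G3Pp2.

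The shorter sequence GCACGT, one of the cores that the element allows, was also searched on both strands and can lie within a match to the element. It was present upstream of 21 of the 43 members (48.8%) and of 5.8% of all protein-coding genes. Other cores that the element allows were less set apart. GCACGA was upstream of 16.3% of the members and 5.35% of all genes, and TCACGA of 20.9% and 12.2%. For TCACGT the shares were 14.0% and 13.9%. Among the 16 extensins, 10 held GCACGT. The G-box CACGTG, which shares bases with GCACGT, was present upstream of 0 members and of 9.35% of all protein-coding genes. A match is a stretch of letters in this window and not a measured site.

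In Col-0, most members were lower with NHP at every time. Their median log2(FC), NHP minus mock, was -0.94, -1.09, -1.15 and -1.26 at the 4 times, from the earliest to the latest, an order kept below. Values below -1 were found for 15, 26, 25 and 28 of the 43 members, against 0.908%, 1.07%, 1.03% and 1.35% of all genes tested. Since these contrasts are taken to have chosen the list, nothing is read from the counts. At 6 h, EXPA7 stood at 31.6, 30.2 and 35.3 CPM in the Col-0 mock libraries and at 11, 10.7 and 12.7 CPM with NHP. G3Pp2, a glycerol-3-phosphate permease gene, stood at 16.1, 17.8 and 16.7 CPM in mock and at 4.27, 2.85 and 3.54 CPM with NHP, a log2(FC) of -2.25 ± 0.19 (SE).

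In sid2-2, 33, 33, 29 and 35 of the 43 members fell with NHP at the 4 times, by the quasi-likelihood test of edgeR with p-values adjusted (Benjamini-Hochberg) over all genes tested. The shares of all genes that were called lower were 2.43%, 1.15%, 7.23% and 6.04%. The members' median log2(FC) was -0.83, -1.03, -0.82 and -1.02, and the median over all genes tested was between -0.02 and 0.01 in both mutants. In fmo1-1, 32, 35, 29 and 38 members fell, against 2.66%, 1.76%, 1.79% and 2.52% of all genes, with medians of -0.86, -1.09, -0.84 and -1.07. Members that rose numbered 0, 0, 1 and 1 in sid2-2, against 2.45%, 0.699%, 5.79% and 4.94% of all genes, and 0, 0, 2 and 0 in fmo1-1, against 1.29%, 0.946%, 2.16% and 2.64%. Of the 43 members, 26 fell in all 8 contrasts and 33 in at least 5, against 0.366% and 0.784% of all genes tested. RHD6 and AT2G43150 fell in none, as did 84.6% of all genes.

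**Figure D1:**
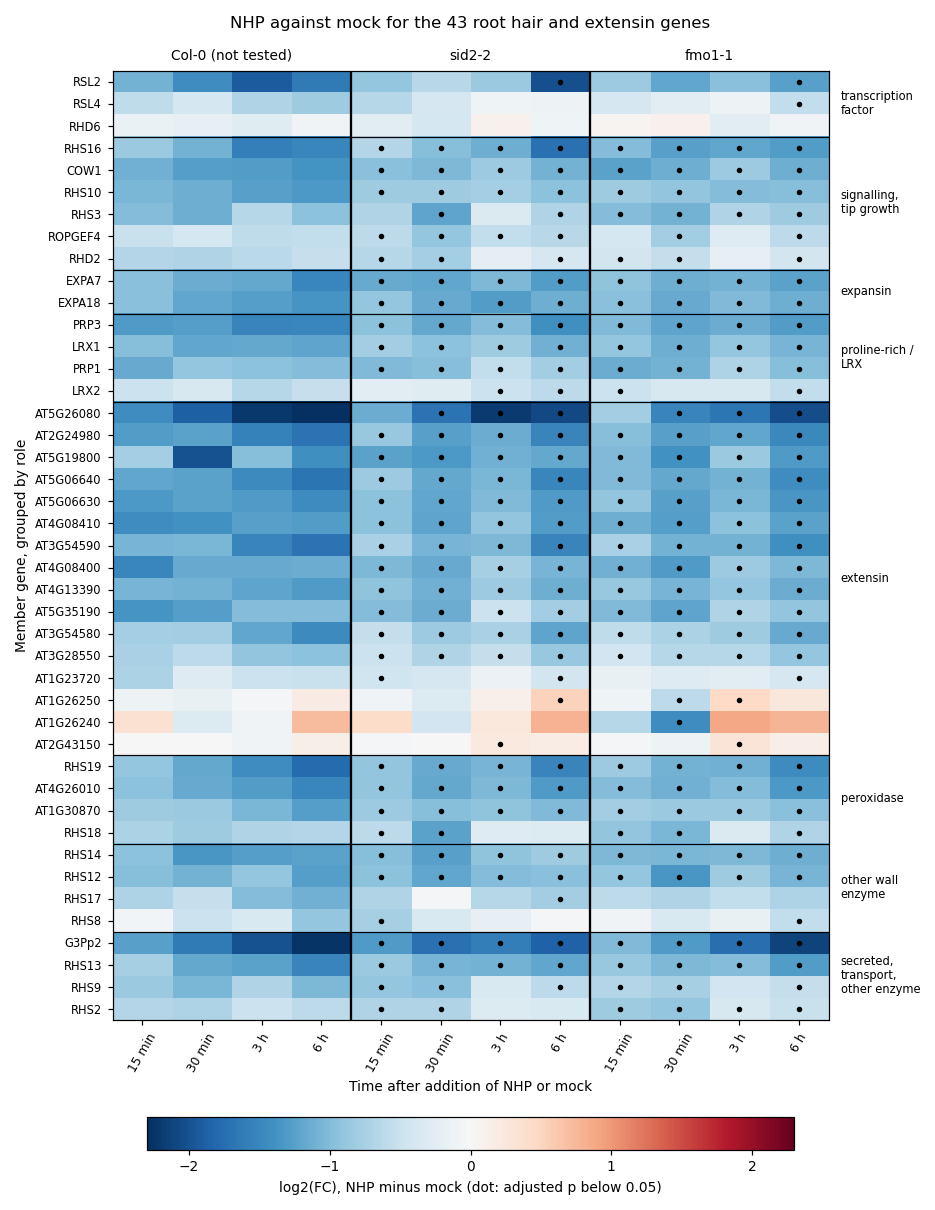
The log2(FC) of NHP against mock for each of the 43 members (rows, grouped by role) at 4 times in Col-0, sid2-2 and fmo1-1 (columns), where blue is lower with NHP, red is higher, and a dot marks an adjusted p below 0.05. Most members are blue at all times, whereas RHD6 and AT2G43150 stay near white, and AT1G26250 and AT1G26240 are blue at some times and red at others.

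Batch as a term could be fitted for sid2-2 at 6 h alone, on the 12 Col-0 and sid2-2 libraries, where Col-0 libraries of both treatments share a batch. The sid2-2 libraries of mock and NHP lie in different batches at 6 h too, so the fit separates batch from NHP only through Col-0. The batch of sid2-2 mock is linked to that of sid2-2 NHP by few libraries. These are Col-0 NHP replicate 1 in the former and replicates 2 and 3 in the latter. With the batch term, 24 members were lower in sid2-2 (median log2(FC) -0.93, 0.485% of all genes called lower). Without it, in the same libraries, 33 were (median -1.0, 4.81% of all genes). The levels of all members were also averaged, as the mean over the 43 members of log2 CPM with each member centred on its mean over 72 libraries. In sid2-2 this mean was 0.12 ± 0.04 (SD, n = 3) in mock and -0.63 ± 0.19 (SD, n = 3) with NHP at 15 min, and 0.16 ± 0.05 (SD, n = 3) and -0.73 ± 0.11 (SD, n = 3) at 6 h. In fmo1-1 the corresponding means were 0.50 ± 0.10 (SD, n = 3) and -0.24 ± 0.08 (SD, n = 3) at 15 min, and 0.74 ± 0.02 (SD, n = 3) and -0.19 ± 0.04 (SD, n = 3) at 6 h.

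**Figure D2:**
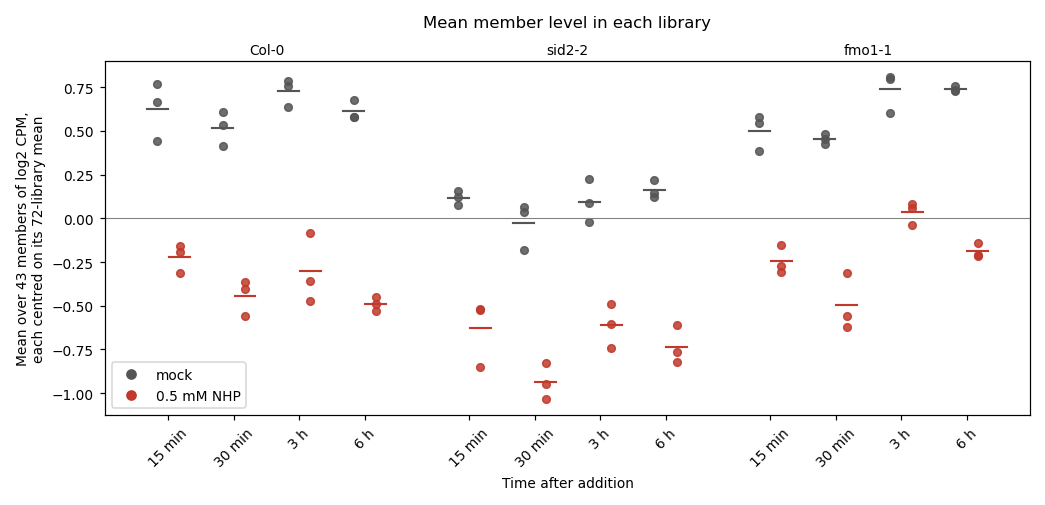
Mean over the 43 members of log2 CPM, each member centred on its mean over 72 libraries, for each library (dots; line, mean of 3) by genotype and time, with mock in grey and NHP in red. In every genotype and at every time the 3 NHP libraries lie below the 3 mock libraries, and the sid2-2 mock libraries lie below those of Col-0 and fmo1-1.

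Among the transcription factors, RHD6, which acts early in hair-forming cells, was not called in any of the 8 contrasts. At 15 min, RHD6 stood at 2.67, 2.5 and 1.48 CPM in the sid2-2 mock libraries and at 1.9, 2.07 and 1.59 CPM in the libraries with NHP. At 6 h, RHD6 was measured at 3.64, 2.81 and 3.51 CPM in the fmo1-1 mock libraries and at 2.93, 2.31 and 4.17 CPM in the libraries with NHP. The libraries of both treatments overlapped in both cases, and the log2(FC) over the 8 contrasts ranged from -0.41 to 0.11. RSL4, a bHLH factor that sets hair length, fell in 1 contrast. At 6 h, RSL4 stood at 6.14, 6.17 and 5.55 CPM in the fmo1-1 mock libraries and at 4.24, 3.81 and 3.96 CPM in the libraries with NHP. This was a log2(FC) of -0.57 ± 0.17 (SE, edgeR-adjusted p = 0.0262). At 6 h, RSL4 stood at 3.68, 3.2 and 4.1 CPM in the sid2-2 mock libraries and at 3.09, 3.82 and 3.17 CPM in the libraries with NHP. Those groups overlapped, with a log2(FC) of -0.12 ± 0.18 (SE, edgeR-adjusted p = 0.75). At 15 min, RSL4 stood at 2.41, 3.02 and 2.68 CPM in the sid2-2 mock libraries and at 1.3, 1.88 and 1.9 CPM in the libraries with NHP. There the groups did not overlap, but the log2(FC) of -0.66 ± 0.21 (SE, edgeR-adjusted p = 0.0565) missed the threshold. At 15 min, RSL4 stood at 2.75, 4.07 and 2.93 CPM in the fmo1-1 mock libraries and at 2.75, 2.04 and 2.67 CPM in the libraries with NHP. This was a log2(FC) of -0.39 ± 0.19 (SE, edgeR-adjusted p = 0.308).

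RSL2, which acts beside RSL4 in hair elongation, had a mean level of 1.0 CPM over 72 libraries, the lowest of the members. It fell at 6 h in both mutants and was not called at the other times. At 6 h, RSL2 stood at 0.762, 2.23 and 0.871 CPM in the sid2-2 mock libraries and at 0.515, 0.297 and 0.122 CPM in the libraries with NHP. That corresponds to a log2(FC) of -2.02 ± 0.42 (SE, edgeR-adjusted p = 0.000399). With batch as a term, on the 12 libraries, the value was -2.03 and was not called (edgeR-adjusted p = 0.349). At 6 h, RSL2 stood at 0.909, 1.74 and 1.12 CPM in the fmo1-1 mock libraries and at 0.347, 0.487 and 0.743 CPM in the libraries with NHP. The fitted log2(FC) was -1.25 ± 0.38 (SE, edgeR-adjusted p = 0.0354). At 15 min the value was -0.89 ± 0.42 (SE, edgeR-adjusted p = 0.221) in sid2-2 and -0.84 ± 0.36 (SE, edgeR-adjusted p = 0.214) in fmo1-1. Of 6 further bHLH factors of root hairs, 5 were tested. LRL3 fell in 7 of the 8 contrasts, the exception being fmo1-1 at 15 min, and had -1.03 ± 0.16 (SE, edgeR-adjusted p = 2.94e-06) in fmo1-1 at 6 h. RSL5 had log2(FC) of -1.42 ± 0.38 (SE, edgeR-adjusted p = 0.0181) at 15 min and -1.39 ± 0.32 (SE, edgeR-adjusted p = 0.0028) at 6 h in fmo1-1. LRL1 fell in sid2-2 at 15 min, with -0.31 ± 0.08 (SE, edgeR-adjusted p = 0.0217), and rose there at 6 h, with 0.35 ± 0.08 (SE, edgeR-adjusted p = 0.00191). Of 9 genes of epidermal patterning, such as GL2 and CPC, which set hair against non-hair cell fate, 0 were called by edgeR in the 8 contrasts. Over all genes, 1.15% to 7.23% were called lower and 0.699% to 5.79% higher per contrast. At such shares a count of 0 among 9 genes is not read as a result. At an unadjusted p below 0.05 there were between 0 and 3 per contrast, and DESeq2 called 0 in each.

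All 6 signalling and tip growth members fell in at least 5 of the 8 contrasts. RHD2, the NADPH oxidase RBOHC that makes reactive oxygen at the hair tip, fell in 6. At 15 min, RHD2 stood at 17.7, 17.3 and 16.8 CPM in the sid2-2 mock libraries and at 10.9, 10.4 and 11.6 CPM in the libraries with NHP. At 15 min, RHD2 stood at 21.6, 22.7 and 19.9 CPM in the fmo1-1 mock libraries and at 14.8, 18.7 and 14.2 CPM in the libraries with NHP. The NHP libraries lay below the mock libraries in both mutants, with log2(FC) of -0.66 ± 0.11 (SE, edgeR-adjusted p = 3.37e-05) in sid2-2 and -0.42 ± 0.10 (SE, edgeR-adjusted p = 0.00474) in fmo1-1. At 3 h the groups overlapped, and the values were -0.22 ± 0.10 (SE, edgeR-adjusted p = 0.158) and -0.19 ± 0.10 (SE, edgeR-adjusted p = 0.332). At 6 h, RHD2 stood at 21.2, 20.5 and 21.4 CPM in the sid2-2 mock libraries and at 15.6, 17.1 and 15.5 CPM in the libraries with NHP. At 6 h, RHD2 stood at 25.4, 27.4 and 27.1 CPM in the fmo1-1 mock libraries and at 18.5, 19.5 and 22 CPM in the libraries with NHP. The log2(FC) at 6 h was -0.39 ± 0.10 (SE, edgeR-adjusted p = 0.00546) and -0.41 ± 0.10 (SE, edgeR-adjusted p = 0.00262). In sid2-2, the fit with the batch term gave -0.49 for RHD2, which missed the threshold (edgeR-adjusted p = 0.061).

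COW1, a phosphatidylinositol transfer protein needed for tip growth, fell in all 8 contrasts. At 15 min, COW1 stood at 18.8, 18.3 and 19 CPM in the sid2-2 mock libraries and at 8.73, 9.92 and 10 CPM in the libraries with NHP. At 15 min, COW1 stood at 27.8, 31.7 and 24.2 CPM in the fmo1-1 mock libraries and at 10.8, 12.6 and 12.4 CPM in the libraries with NHP. The NHP level was 51.2% of mock in sid2-2 and 42.8% in fmo1-1 by the fit, with log2(FC) of -0.96 ± 0.13 (SE, edgeR-adjusted p = 5.14e-07) and -1.22 ± 0.12 (SE, edgeR-adjusted p = 7.35e-11). At 6 h, COW1 stood at 20.3, 20.7 and 16.4 CPM in the sid2-2 mock libraries and at 10.2, 7.68 and 9.11 CPM in the libraries with NHP. At 6 h, COW1 stood at 29.6, 32.2 and 30.6 CPM in the fmo1-1 mock libraries and at 13.1, 14.7 and 14.7 CPM in the libraries with NHP. The groups did not overlap at 6 h, and over the 8 contrasts the log2(FC) ranged from -1.22 to -0.84. RHS16, a receptor-like kinase gene, fell in all 8 as well. At 15 min, RHS16 stood at 7.41, 7.65 and 6.34 CPM in the sid2-2 mock libraries and at 3.64, 5.17 and 4.57 CPM in the libraries with NHP. At 6 h, RHS16 stood at 7.76, 8.81 and 8.62 CPM in the sid2-2 mock libraries and at 2.02, 2.67 and 3.01 CPM in the libraries with NHP. Here the log2(FC) came to -0.67 ± 0.15 (SE, edgeR-adjusted p = 0.00299) at 15 min and -1.71 ± 0.15 (SE, edgeR-adjusted p = 2.27e-13) at 6 h. At 15 min, RHS16 stood at 11.9, 12.4 and 10.2 CPM in the fmo1-1 mock libraries and at 5.63, 6.0 and 5.59 CPM in the libraries with NHP. At 6 h, RHS16 stood at 11.9, 12.6 and 12 CPM in the fmo1-1 mock libraries and at 3.86, 5.39 and 5.65 CPM in the libraries with NHP. In fmo1-1 the values were -1.0 ± 0.13 (SE, edgeR-adjusted p = 7.96e-08) and -1.29 ± 0.13 (SE, edgeR-adjusted p = 1.68e-11). The receptor-like kinase gene RHS10 (PERK13), known to restrain hair growth, also fell in all 8, with log2(FC) of -1.0 to -0.78. ROPGEF4, an activator of ROP GTPases, and the kinase gene RHS3 (AT1G16440) fell in 6 each.

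Both expansin members fell in all 8 contrasts. EXPA7 is expressed in root hair cells and loosens their wall. The gene spans chr1:4276505-4277969 on the plus strand in TAIR10.1. At 15 min, EXPA7 stood at 23.6, 22.1 and 23.6 CPM in the sid2-2 mock libraries and at 9.53, 11.2 and 10.3 CPM in the libraries with NHP. At 15 min, EXPA7 stood at 26.8, 30.3 and 22.8 CPM in the fmo1-1 mock libraries and at 13, 14.2 and 15.1 CPM in the libraries with NHP. The lowest mock library was above the highest NHP library in each mutant. This was a log2(FC) of -1.16 ± 0.13 (SE, edgeR-adjusted p = 7.9e-09) and -0.92 ± 0.12 (SE, edgeR-adjusted p = 1.08e-07). At 30 min, EXPA7 stood at 22.5, 18 and 16.4 CPM in the sid2-2 mock libraries and at 8.31, 7.68 and 8.98 CPM in the libraries with NHP. At 3 h, EXPA7 stood at 17.9, 21.8 and 23.4 CPM in the sid2-2 mock libraries and at 10.3, 8.75 and 11.8 CPM in the libraries with NHP. At 6 h, EXPA7 stood at 21.1, 24.4 and 21.9 CPM in the sid2-2 mock libraries and at 10.4, 8.9 and 8.25 CPM in the libraries with NHP. The sid2-2 NHP libraries thus held between 40.9% and 49% of the mock level at the 4 times. At 30 min, EXPA7 stood at 26.2, 25 and 28.9 CPM in the fmo1-1 mock libraries and at 13.5, 13.1 and 10 CPM in the libraries with NHP. At 3 h, EXPA7 stood at 32.7, 33.5 and 37.5 CPM in the fmo1-1 mock libraries and at 17.8, 14.7 and 16.3 CPM in the libraries with NHP. At 6 h, EXPA7 stood at 33.1, 35.3 and 33.8 CPM in the fmo1-1 mock libraries and at 14.5, 14.2 and 15 CPM in the libraries with NHP. In fmo1-1 the share was between 42.7% and 52.9%. EXPA7 overlaps AT1G12570 on the opposite strand, which had a mean of 1.09 CPM and was called lower in 1 contrast. EXPA18 had log2(FC) of -1.28 to -0.88.

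Of the proline-rich and leucine-rich repeat extensin genes, PRP3, PRP1 and LRX1 fell in all 8 contrasts and LRX2 in 4. PRP3 encodes a proline-rich wall protein of root hairs. At 15 min, PRP3 stood at 109, 113 and 103 CPM in the sid2-2 mock libraries and at 47, 64.2 and 58.2 CPM in the libraries with NHP. At 6 h, PRP3 stood at 111, 123 and 107 CPM in the sid2-2 mock libraries and at 50.1, 38.6 and 39.5 CPM in the libraries with NHP. The NHP libraries lay below all mock libraries, with log2(FC) of -0.94 ± 0.12 (SE, edgeR-adjusted p = 7.01e-07) and -1.41 ± 0.12 (SE, edgeR-adjusted p = 2.44e-12). At 15 min, PRP3 stood at 151, 162 and 129.9 CPM in the fmo1-1 mock libraries and at 63.5, 80.1 and 75.7 CPM in the libraries with NHP. At 6 h, PRP3 stood at 169, 169 and 175 CPM in the fmo1-1 mock libraries and at 69.7, 76.1 and 66 CPM in the libraries with NHP. The values in fmo1-1 were -1.01 ± 0.12 (SE, edgeR-adjusted p = 2.38e-08) and -1.28 ± 0.12 (SE, edgeR-adjusted p = 1.2e-11). LRX1 is a chimeric leucine-rich repeat and extensin protein of the hair wall. At 15 min, LRX1 stood at 42.7, 46.5 and 39.3 CPM in the sid2-2 mock libraries and at 21, 25.5 and 27 CPM in the libraries with NHP. At 6 h, LRX1 stood at 43.5, 45.7 and 44.3 CPM in the sid2-2 mock libraries and at 23.2, 19 and 20.3 CPM in the libraries with NHP. That corresponds to a log2(FC) of -0.80 ± 0.12 (SE, edgeR-adjusted p = 8.04e-06) and -1.1 ± 0.12 (SE, edgeR-adjusted p = 6.25e-10). At 15 min, LRX1 stood at 60.4, 58.6 and 48.9 CPM in the fmo1-1 mock libraries and at 28.5, 34.9 and 27.3 CPM in the libraries with NHP. At 6 h, LRX1 stood at 65.5, 67.1 and 67.1 CPM in the fmo1-1 mock libraries and at 31.2, 30.3 and 33.7 CPM in the libraries with NHP. Again no NHP library reached a mock library, and the log2(FC) was -0.89 ± 0.11 (SE, edgeR-adjusted p = 1.25e-07) and -1.07 ± 0.11 (SE, edgeR-adjusted p = 2.09e-10). LRX2, which acts together with LRX1 in the hair wall, had log2(FC) of -0.60 to -0.26.

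**Figure D3:**
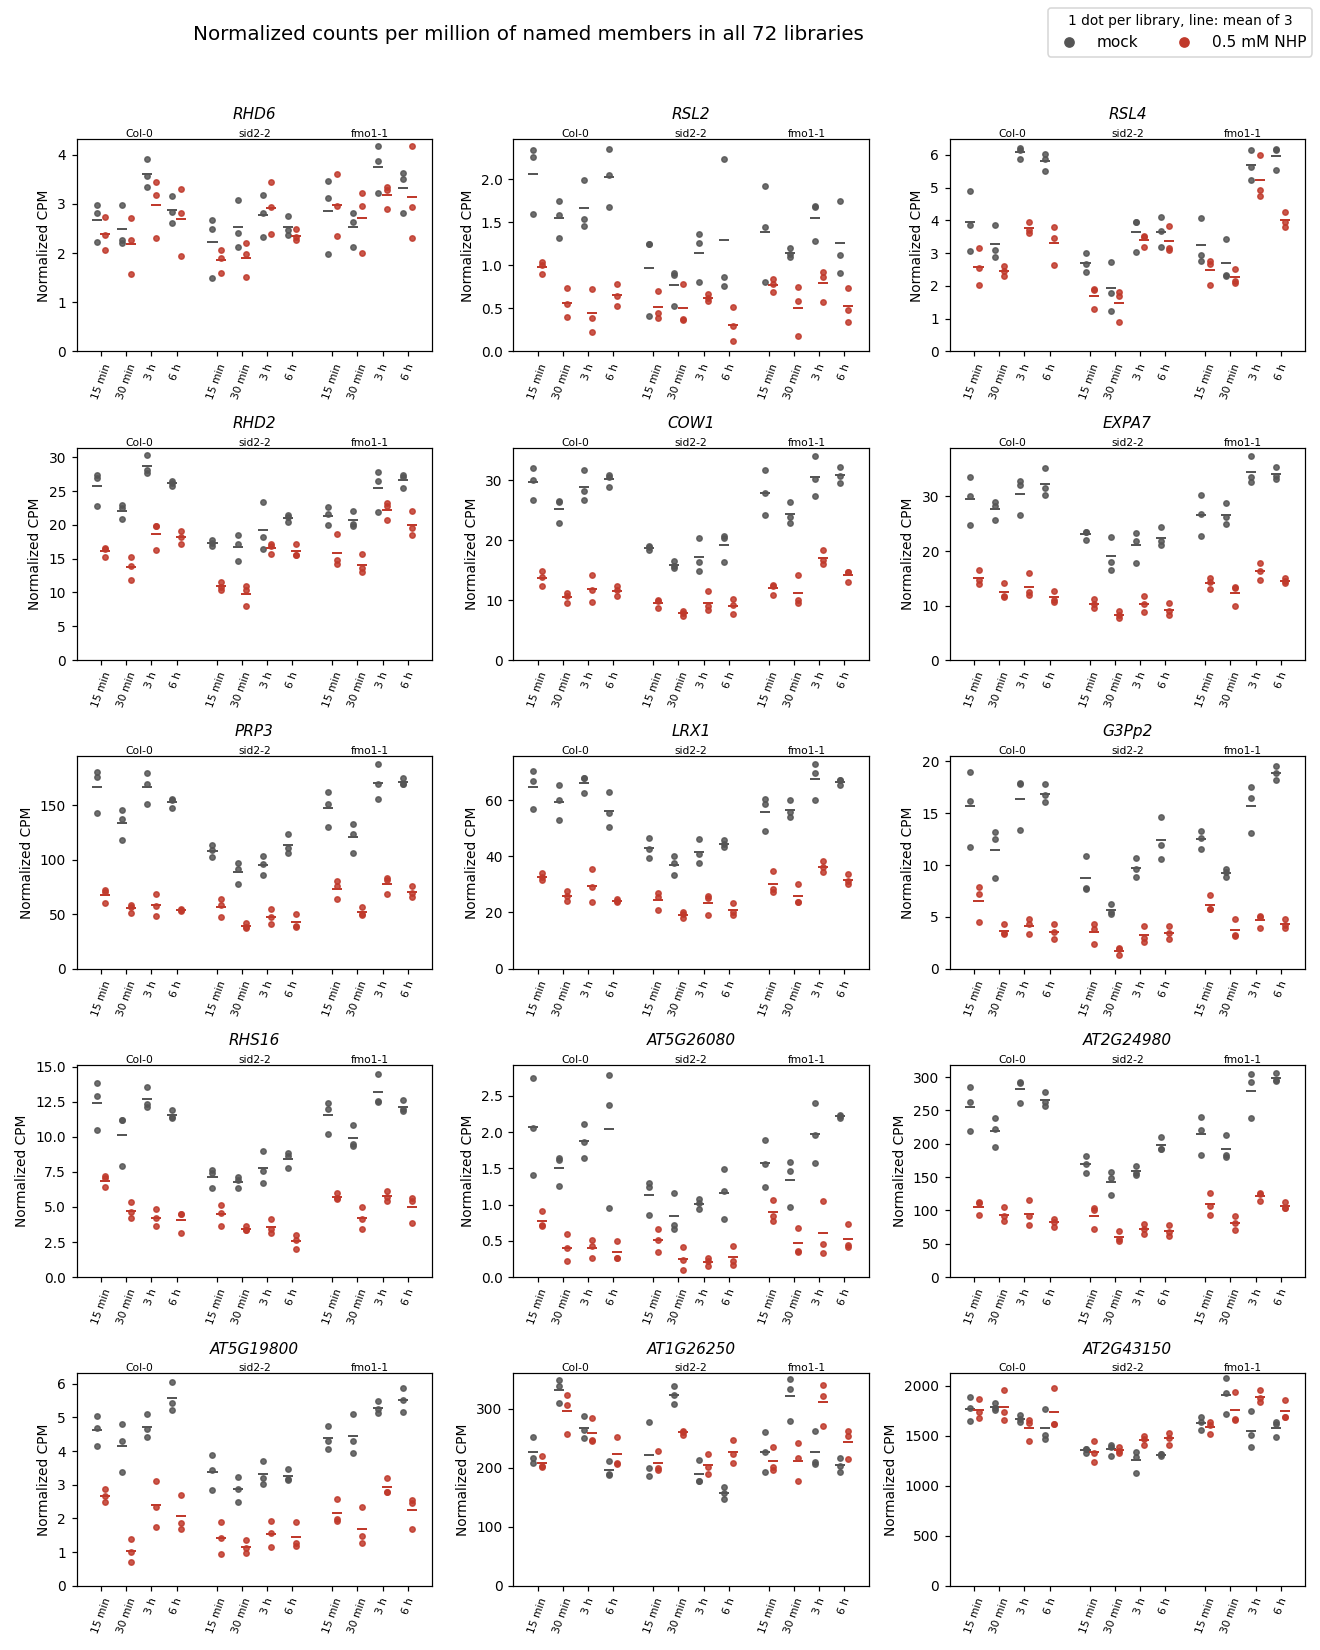
Normalized CPM of 15 named members in all 72 libraries (1 dot per library; line, mean of 3), by genotype and time, with mock in grey, 0.5 mM NHP in red and a vertical axis from 0 in each panel. For EXPA7, COW1, PRP3 and LRX1 no NHP library reaches a mock library of its genotype and time, whereas for RHD6 and AT2G43150 most groups overlap.

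Of the 16 extensins, 11 fell in all 8 contrasts and 12 in at least 5. AT5G26080, AT2G24980 and AT5G19800 had the lowest mean log2(FC). AT5G26080 was measured at a mean of 1.02 CPM over the 72 libraries. At 6 h, AT5G26080 stood at 0.807, 1.18 and 1.49 CPM in the sid2-2 mock libraries and at 0.436, 0.223 and 0.163 CPM in the libraries with NHP. At 6 h, AT5G26080 stood at 2.23, 2.22 and 2.2 CPM in the fmo1-1 mock libraries and at 0.733, 0.446 and 0.413 CPM in the libraries with NHP. The groups did not overlap, and the log2(FC) was -2.07 ± 0.41 (SE, edgeR-adjusted p = 0.000211) and -2.04 ± 0.33 (SE, edgeR-adjusted p = 6.42e-06). The call in sid2-2 was lost with the batch term, where the log2(FC) was -2.59 (edgeR-adjusted p = 0.236). At 15 min, AT5G26080 stood at 0.862, 1.3 and 1.24 CPM in the sid2-2 mock libraries and at 0.349, 0.658 and 0.517 CPM in the libraries with NHP. At 15 min, AT5G26080 stood at 1.89, 1.25 and 1.56 CPM in the fmo1-1 mock libraries and at 0.773, 0.847 and 1.07 CPM in the libraries with NHP. These differences at 15 min missed the threshold, with -1.13 ± 0.38 (SE, edgeR-adjusted p = 0.0681) and -0.81 ± 0.32 (SE, edgeR-adjusted p = 0.175). AT2G24980 (EXT6) stood far higher. At 15 min, AT2G24980 was at 169.7, 182 and 156 CPM in the sid2-2 mock libraries and at 72.1, 104 and 101 CPM in the libraries with NHP. At 6 h, AT2G24980 was at 192, 211 and 192 CPM in the sid2-2 mock libraries and at 78.6, 61.8 and 67.5 CPM in the libraries with NHP. The fitted log2(FC) was -0.87 ± 0.13 (SE, edgeR-adjusted p = 1.43e-05) and -1.52 ± 0.13 (SE, edgeR-adjusted p = 2.83e-12). At 15 min, AT2G24980 was at 239.6, 220.1 and 184 CPM in the fmo1-1 mock libraries and at 93.8, 127 and 107 CPM in the libraries with NHP. At 6 h, AT2G24980 was at 294, 296 and 306 CPM in the fmo1-1 mock libraries and at 103, 104 and 113 CPM in the libraries with NHP. In fmo1-1 the values were -0.97 ± 0.13 (SE, edgeR-adjusted p = 4.77e-07) and -1.49 ± 0.13 (SE, edgeR-adjusted p = 2.93e-12).

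AT5G19800, a hydroxyproline-rich glycoprotein gene, also fell in all 8 contrasts. At 15 min, AT5G19800 stood at 3.88, 3.43 and 2.84 CPM in the sid2-2 mock libraries and at 0.948, 1.41 and 1.9 CPM in the libraries with NHP. At 6 h, AT5G19800 stood at 3.18, 3.46 and 3.15 CPM in the sid2-2 mock libraries and at 1.9, 1.19 and 1.26 CPM in the libraries with NHP. Here the log2(FC) came to -1.23 ± 0.21 (SE, edgeR-adjusted p = 9.83e-05) and -1.17 ± 0.21 (SE, edgeR-adjusted p = 3.52e-05). At 15 min, AT5G19800 stood at 4.73, 4.31 and 4.07 CPM in the fmo1-1 mock libraries and at 2.58, 1.92 and 1.97 CPM in the libraries with NHP. At 6 h, AT5G19800 stood at 5.53, 5.86 and 5.17 CPM in the fmo1-1 mock libraries and at 2.47, 2.55 and 1.69 CPM in the libraries with NHP. The fmo1-1 groups did not overlap either, with -1.02 ± 0.19 (SE, edgeR-adjusted p = 0.000187) and -1.3 ± 0.18 (SE, edgeR-adjusted p = 2.09e-07). The other 9 extensins that fell in all 8 contrasts were AT5G06640, AT5G06630, AT4G08410, AT4G08400, AT3G54590, AT3G54580, AT4G13390, AT5G35190 and AT3G28550, and their mean log2(FC) over the 8 contrasts ran from -1.16 to -0.66. AT1G23720 fell in 3 contrasts, with a mean of -0.32.

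AT2G43150, AT1G26250 and AT1G26240 did not share this pattern. AT2G43150 had the highest level per exon length of all members, 1127 CPM per kb on average, against 147 CPM per kb for AT1G26250, the next. At 3 h, AT2G43150 stood at 1129, 1288 and 1338 CPM in the sid2-2 mock libraries and at 1495, 1468 and 1404 CPM in the libraries with NHP. At 3 h, AT2G43150 stood at 1381, 1750.4 and 1502 CPM in the fmo1-1 mock libraries and at 1838, 1957 and 1873 CPM in the libraries with NHP. The NHP libraries were above the mock libraries in both mutants, with log2(FC) of 0.22 ± 0.07 (SE, edgeR-adjusted p = 0.0418) and 0.29 ± 0.07 (SE, edgeR-adjusted p = 0.0113). At 15 min, AT2G43150 stood at 1368, 1364 and 1324 CPM in the sid2-2 mock libraries and at 1234, 1443 and 1327 CPM in the libraries with NHP. At 15 min, AT2G43150 stood at 1687, 1633 and 1554 CPM in the fmo1-1 mock libraries and at 1511, 1634 and 1605 CPM in the libraries with NHP. The groups overlapped at 15 min, and the log2(FC) was -0.02 ± 0.07 (SE, edgeR-adjusted p = 0.934) and -0.04 ± 0.07 (SE, edgeR-adjusted p = 0.871). At 6 h, AT1G26250 stood at 157, 147 and 168 CPM in the sid2-2 mock libraries and at 209, 248 and 223 CPM in the libraries with NHP. At 3 h, AT1G26250 stood at 206, 263 and 210.4 CPM in the fmo1-1 mock libraries and at 271, 339 and 322 CPM in the libraries with NHP. AT1G26250 rose in these 2 contrasts, by 0.53 ± 0.12 (SE, edgeR-adjusted p = 0.00266) and 0.46 ± 0.12 (SE, edgeR-adjusted p = 0.0187) on the log2 scale. At 30 min, AT1G26250 stood at 279, 349.6 and 334 CPM in the fmo1-1 mock libraries and at 177, 242 and 216 CPM in the libraries with NHP. There it fell, with a log2(FC) of -0.60 ± 0.12 (SE, edgeR-adjusted p = 0.00145). Its neighbour AT1G26240, 4191 bases away in TAIR10.1, fell in fmo1-1 at 30 min, with -1.42 ± 0.35 (SE, edgeR-adjusted p = 0.0114), and was not called elsewhere.

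In 6 of the 16 extensins, more than 10% of the exonic stretches of 100 bases occur more than once in TAIR10.1. The shares were 43.6% for AT4G08400, 36% for AT4G08410, 17.8% for AT1G26240, 16% for AT3G54580, 15.8% for AT2G24980 and 12.9% for AT5G06630. The counts of these genes are uncertain to the extent that reads of 100 bp were split between copies. Of the extensins named above, AT5G26080, AT5G19800, AT5G06640, AT4G13390, AT5G35190, AT1G23720, AT1G26250 and AT2G43150 had no repeated stretch. For the 10 extensins with GCACGT upstream, the median of the mean log2(FC) over 8 contrasts was -1.06, and for the 6 without it -0.14. The other members did not show this order, with -0.81 for the 11 with GCACGT and -1.03 for the 16 without it, and over all 43 members the medians were -0.96 and -0.97. The extensin medians depended on the core. For TCACGT they were -0.32 for the 1 extensin with it and -1.04 for the 15 without it. For TCACGA they were -1.14 for 4 and -0.95 for 12, and 0 extensins held GCACGA. The 6 extensins without GCACGT include AT5G26080 and AT5G19800, which fell in 6 and 8 contrasts, and AT2G43150, AT1G26250 and AT1G26240, which fell in at most 1. The 10 with it include neighbours, namely AT4G08400 and AT4G08410 (13444 bases apart), AT5G06630 and AT5G06640 (1742), and AT3G54580 and AT3G54590 (2208). The 10 are therefore not separate observations.

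The 4 peroxidase genes, whose products can crosslink extensins, each fell in at least 5 contrasts. AT4G26010, AT1G30870 and RHS19 fell in all 8, with mean log2(FC) of -1.11, -0.90 and -1.14. RHS18 fell in 5, at 15 and 30 min in both mutants and at 6 h in fmo1-1. Of the other wall enzymes, the pectin methylesterase gene RHS12 and the pectate lyase gene RHS14 fell in all 8 (means -1.03 and -1.03), the xyloglucan galacturonosyltransferase gene RHS8 in 2 and RHS17 in 1. Members that overlap a gene on the opposite strand were EXPA7, EXPA18, AT5G06640, AT1G26250, AT1G30870, AT4G26010 and RHS19, and the sources do not say whether counting used strand. The partner of AT1G30870, AT1G30880, had a mean of 66.6 CPM and was not called in any of the 8 contrasts.

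G3Pp2 had the next to lowest mean log2(FC) of the members, -1.58, after -1.64 for AT5G26080. It spans chr4:12920742-12922885 on the plus strand in TAIR10.1. At 15 min, G3Pp2 stood at 7.75, 10.9 and 7.66 CPM in the sid2-2 mock libraries and at 2.4, 3.81 and 4.27 CPM in the libraries with NHP. At 30 min, G3Pp2 stood at 6.2, 5.44 and 5.28 CPM in the sid2-2 mock libraries and at 1.85, 1.36 and 1.97 CPM in the libraries with NHP. At 3 h, G3Pp2 stood at 8.86, 10.7 and 9.57 CPM in the sid2-2 mock libraries and at 4.09, 2.59 and 2.98 CPM in the libraries with NHP. All NHP libraries of sid2-2 were below their mock libraries. At 6 h, G3Pp2 stood at 10.6, 14.7 and 11.9 CPM in the sid2-2 mock libraries and at 4.08, 2.82 and 3.42 CPM in the libraries with NHP. By the fit, the NHP level at 15 min was 40.5% of mock, and at 6 h 27.7%, with log2(FC) of -1.3 ± 0.21 (SE, edgeR-adjusted p = 3.35e-05) and -1.85 ± 0.20 (SE, edgeR-adjusted p = 3.33e-10). At 15 min, G3Pp2 stood at 13.3, 12.6 and 11.5 CPM in the fmo1-1 mock libraries and at 5.75, 7.08 and 5.72 CPM in the libraries with NHP. At 30 min, G3Pp2 stood at 9.57, 9.29 and 8.8 CPM in the fmo1-1 mock libraries and at 3.22, 4.82 and 3.12 CPM in the libraries with NHP. At 3 h, G3Pp2 stood at 13.1, 16.4 and 17.5 CPM in the fmo1-1 mock libraries and at 5.02, 3.92 and 5.11 CPM in the libraries with NHP. In fmo1-1 the groups were likewise apart. At 6 h, G3Pp2 stood at 18.2, 18.9 and 19.6 CPM in the fmo1-1 mock libraries and at 3.89, 4.83 and 4.17 CPM in the libraries with NHP. The share of mock was 49.7% at 15 min and 22.7% at 6 h, with log2(FC) of -1.01 ± 0.18 (SE, edgeR-adjusted p = 0.000166) and -2.14 ± 0.18 (SE, edgeR-adjusted p = 6.21e-13). Whether the 6 h and 15 min responses differ was not tested. RHS13, a gene for a secreted protein, fell in all 8 contrasts (mean -1.05), and the methylesterase gene RHS9 (MES15) and the transporter gene RHS2 (AT1G12950) fell in 6 each.

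The response was compared between fmo1-1 and sid2-2 by an interaction term. By edgeR, 0 of the 43 members differed at any of the 4 times, against 1.36%, 0.0618%, 0.0475% and 0.171% of all genes. At such shares a count of 0 among 43 members is not read as a result, and it does not show equal responses. At an unadjusted p below 0.05 there were 2, 1, 0 and 2 members, against 14.2%, 9.97%, 10.6% and 8.47% of all genes. DESeq2 also called 0 members at each time. The median difference of log2(FC), fmo1-1 minus sid2-2, was -0.01, 0.01, -0.04 and -0.01. Differences of single members ran from -1.09 to 0.67 at 15 min and from -0.98 to 0.52 at 30 min. They ran from -0.37 to 0.64 at 3 h and from -0.54 to 0.77 at 6 h. For EXPA7 the difference at 6 h was 0.06, with a 95% interval from -0.28 to 0.40. For COW1 at 15 min it was -0.26, from -0.61 to 0.09. The response of either mutant was not tested against that of Col-0.

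Without NHP, members stood higher in fmo1-1 than in sid2-2, and Col-0 stood near fmo1-1. The mean over the members of centred log2 CPM in mock was 0.50, 0.45, 0.74 and 0.74 in fmo1-1 at the 4 times. In sid2-2 it was 0.12, -0.03, 0.10 and 0.16. In Col-0, given as a description without a test, it was 0.63, 0.52, 0.73 and 0.61. Of the 43, 28, 36, 36 and 39 were higher in fmo1-1 mock libraries at the 4 times by edgeR, against 11.4%, 10.2%, 14.7% and 11.6% of all genes. At each time 0 were lower by edgeR, as by DESeq2 and at an unadjusted p below 0.05, against 14.8%, 11.6%, 18.8% and 18.3% of all genes, and the median log2 difference was 0.39, 0.51, 0.70 and 0.59. RHS16 stood at 11.9, 12.4 and 10.2 CPM in the fmo1-1 mock libraries of 15 min and at 7.41, 7.65 and 6.34 CPM in those of sid2-2, a log2 difference of 0.70 ± 0.13 (SE, edgeR-adjusted p = 2.6e-05). EXPA7, with the 15 min values given above, differed by 0.21 ± 0.11 (SE, edgeR-adjusted p = 0.188) at 15 min and by 0.60 ± 0.11 (SE, edgeR-adjusted p = 2.12e-05) at 6 h. RSL4 differed by 0.70 ± 0.17 (SE, edgeR-adjusted p = 0.000849) at 6 h. RHD6 and RSL2 were not called at any time. Without replicate 3 of the sid2-2 mock libraries of 15 min, 18 members differed at 15 min. Among 17 markers of other root cell types, 6, 6, 11 and 8 were higher in fmo1-1, with medians of 0.28, 0.44, 0.47 and 0.40, and 8, 7, 9 and 9 of 9 leaf mesophyll genes were lower, with medians of -0.39, -0.23, -0.68 and -0.64. At 6 h the summed level of the root markers was 209 to 213 CPM in fmo1-1 and 179 to 187 CPM in sid2-2. That of the leaf genes was 26701 to 27129.7 and 38708 to 41894 CPM. In Col-0 mock libraries of 6 h the root markers summed to 217 to 225 CPM and the leaf genes to 25926 to 28031 CPM. The part of these levels in the difference of the members was not tested, nor was that of batch. By the paper's methods, which name Col-0 and sid2-2, different genotypes were grown on different plates. Genotype and plate can therefore not be told apart in comparisons of genotypes.

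Markers of other tissues were followed under NHP as well. Of the 17 markers of other root cell types, such as SCR and the CASP genes of the endodermis, at most 1 was called in any of the 8 contrasts, and their median log2(FC) was -0.15, -0.20, 0.15 and -0.01 in sid2-2 and -0.02, 0.03, -0.01 and -0.06 in fmo1-1. Over all genes tested, 1.15% to 7.23% were called lower and 0.699% to 5.79% higher per contrast. At such shares a count of at most 1 among 17 markers is not read as a result. At 6 h the summed level of these root markers was 179 to 187 CPM in sid2-2 mock and 184 to 194 CPM with NHP, and 209 to 213 and 211 to 226 CPM in fmo1-1. At 15 min it was 199 to 213 and 183 to 188 CPM in sid2-2, and 227 to 247 and 241 to 257 CPM in fmo1-1. Of the 9 leaf mesophyll genes, 0, 0, 7 and 7 fell in sid2-2 and 1, 3, 0 and 6 in fmo1-1, with medians between -0.25 and 0.10. Their summed level at 6 h was 38708 to 41894 CPM in sid2-2 mock and 36368 to 39605 CPM with NHP, which overlap. In fmo1-1 it was 26701 to 27129.7 CPM in mock and 22494 to 25188 CPM with NHP at 6 h, and 45049 to 49975 and 40240.1 to 41811 CPM at 30 min, lower with NHP without overlap both times. The part of these levels in the response of the members was not tested.

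Other root hair genes that are not on the list fell in part. Of 12, 2, 2, 4 and 3 fell in sid2-2 and 5, 5, 4 and 7 in fmo1-1, and none rose. Per contrast, 1.15% to 7.23% of all genes fell and 0.699% to 5.79% rose. MRH6 fell in all 8 contrasts, with -1.43 ± 0.18 (SE, edgeR-adjusted p = 4.38e-08) in sid2-2 at 30 min and -1.11 ± 0.15 (SE, edgeR-adjusted p = 2.16e-07) in fmo1-1 at 15 min. RHS1 reached -1.84 ± 0.33 (SE, edgeR-adjusted p = 0.00011) in fmo1-1 at 30 min and RHS4 -1.15 ± 0.26 (SE, edgeR-adjusted p = 0.00365). PIP5K3, a phosphatidylinositol phosphate kinase of hair tips, had -1.16 ± 0.23 (SE, edgeR-adjusted p = 0.00086) in sid2-2 at 30 min. For the other extensin and LRX genes, 8 of 9 of which were tested, the same shares of all genes apply, and the calls named next were mostly rises. Among them, EXT3 rose at 3 h in both mutants, with 0.32 ± 0.06 (SE, edgeR-adjusted p = 7.56e-05) in sid2-2 and 0.21 ± 0.06 (SE, edgeR-adjusted p = 0.0177) in fmo1-1, LRX6 rose in 3 contrasts and EXT1 in 1, and PRP4 fell in 1.

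**Figure D4:**
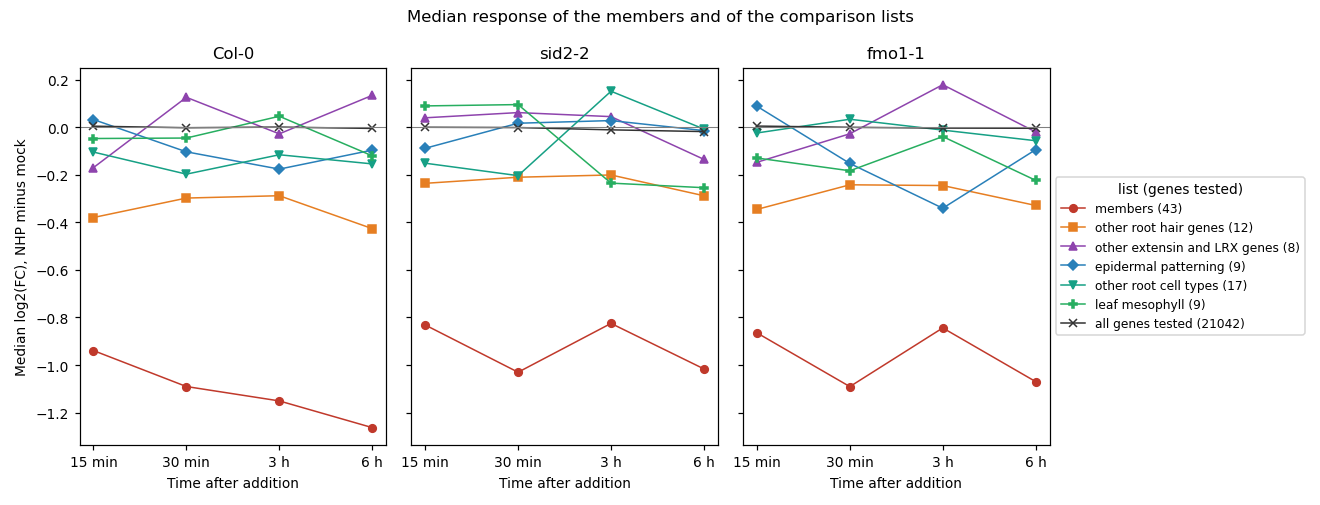
Median log2(FC), NHP minus mock, of the 43 members, of 5 comparison lists and of all genes tested (number of genes tested in brackets), against time in Col-0, sid2-2 and fmo1-1. The members lie between -1.26 and -0.82, the other root hair genes between -0.43 and -0.20, and all genes tested between -0.02 and 0.01.

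Levels without NHP were also compared between 6 h and 15 min. In sid2-2 mock libraries, 4 members rose and 3 fell, against 18.8% and 17.8% of all genes, with a median log2 difference of 0.05. Without mock replicate 3 of 15 min, 0 were called, and without mock replicate 1, 2 or 3 of 6 h, 3, 4 and 4 were called. In fmo1-1 mock libraries 17 rose and 0 fell, against 17.4% and 18.1% of all genes, with a median of 0.25, and 7 were called without mock replicate 3 of 15 min. DESeq2 and an unadjusted p below 0.05 also gave 0 members that fell there. RSL4 showed the largest rise in fmo1-1. It stood at 2.75, 4.07 and 2.93 CPM in the mock libraries of 15 min and at 6.14, 6.17 and 5.55 CPM in those of 6 h, a log2 difference of 0.87 ± 0.17 (SE, edgeR-adjusted p = 3.52e-05). AT1G26250 went the other way in sid2-2 mock libraries, from 199, 186 and 278 CPM to 157, 147 and 168 CPM.

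Members also varied together between libraries of the same group. The deviation of a member from its group mean was correlated with the mean deviation of the other members over the 48 mutant libraries with a median r of 0.61, from -0.22 to 0.94. With the markers of other root cell types, the mean deviation of the members had an r of 0.24, and with the leaf genes of -0.16. These are descriptions over points that share a library and its scaling. The genes off the list most like the members were sought by the correlation of log2 CPM with the members' mean over the same 48 libraries, which includes the contrast of NHP and mock. They were GH9C1, a glycosyl hydrolase gene (r = 0.98), the peroxidase gene AT5G17820 (0.98), the xyloglucan endotransglucosylase genes XTH14 (0.98) and XTH12 (0.98), PRPL1 (0.98), AT5G57625 (0.98), AT1G33700 (0.97), PRX2 (AT1G05250, 0.97), the proton pump gene HA7 (0.97) and AGP3 (0.97). Their log2(FC) in fmo1-1 at 6 h lay between -1.37 and -0.77. Those libraries were among the ones that chose these genes, so nothing is read from these values.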

How the data were processed

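Gene counts per library were made by the authors and used as deposited, as whole numbers for 27655 genes in 72 libraries of whole seedlings. The authors used FastQC for quality, CLC Genomics Workbench for trimming and TAIR10 as the genome. How reads were counted, on which strand and with how many matches, is not given in the sources used here. The model, in edgeR 4.0.16 (R 4.3.3), had 24 groups (filterByExpr with a minimum count of 10 and a minimum total of 15, TMM, robust quasi-likelihood, 48 residual degrees of freedom), and p-values were adjusted by Benjamini-Hochberg over 21042 genes, with calls at 0.05. P-values rest on the spread between the 3 wells of pooled seedlings within a group, shared over all 24 groups, Col-0 included. With only the groups compared in the fit, 24 members fell in sid2-2 at 15 min, against 33 in the main fit. Alternatives were DESeq2 1.42.0, RLE scaling, no filter, fewer libraries, a replicate block, a batch term and leaving out each mutant library. At the library totals given above, members near 1 CPM, such as RSL2, rest on few reads.

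The members, the lists and the tests were chosen with earlier results of these data known. Members in full are the transcription factors, RHD2, COW1, EXPA7, PRP3, LRX1, the 3 extensins and the 3 members of other roles with the lowest mean log2(FC) over the 8 mutant contrasts, and members that rose. Their single libraries are printed mainly for 15 min and 6 h and plotted for all times. For members chosen by the lowest mean, the printed p-values come from the contrasts that chose them and are not independent of that choice. Off the list, the 10 genes most correlated with the members are named, and listed genes past a log2(FC) of 1 or -1. LRL1, LRL3, EXT3, EXT1, LRX6, PRP4 and LHCA3 were named after their values were seen. Sequences and gene positions are from RefSeq TAIR10.1, and all 43 identifiers matched. No coordinate of another build was used.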

Additional observations from a re-analysis of the deposited data

Results flagged for a closer look

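The response to NHP at 15 min differed between fmo1-1 and sid2-2 for PRP4, a proline-rich protein gene off the list of members, with a difference of log2(FC) of -0.53 ± 0.14 (SE, edgeR-adjusted p = 0.047) by the interaction term in edgeR. It differed as well for the leaf gene LHCA3, with -0.37 ± 0.09 (SE, edgeR-adjusted p = 0.0201). In fmo1-1, PRP4 had a log2(FC) of -0.26 ± 0.10 (SE, edgeR-adjusted p = 0.167) and LHCA3 of -0.22 ± 0.06 (SE, edgeR-adjusted p = 0.0349), and in sid2-2 of 0.27 ± 0.10 (SE, edgeR-adjusted p = 0.119) and 0.15 ± 0.06 (SE, edgeR-adjusted p = 0.159).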

How the results depend on the processing

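The counts of members that fell stayed within 1.5 times the reported value with DESeq2, RLE scaling, no filter, fits on fewer libraries and the 6 h batch term, and so did the other counts of members under DESeq2, RLE scaling, no filter and fewer libraries. Requiring a log2(FC) beyond -1 as well left 6, 22, 13 and 22 members in sid2-2 and 12, 26, 13 and 23 in fmo1-1 at the 4 times. The share of all genes past both limits is not given here, so these counts have no reference. The same size limit left 0 members in each comparison of fmo1-1 with sid2-2 in mock and 0 in each comparison of 6 h with 15 min. The comparison of the 12 libraries of 6 h without the batch term was chosen after seeing the data. Leaving out 1 library gave 26 to 33, 31 to 33, 25 to 30 and 31 to 34 members lower in sid2-2, and 29 to 33, 32 to 35, 27 to 28 and 32 to 36 in fmo1-1. It gave 0 to 1 members with a differing response at 15 min and 0 at the later times, the 1 coming without replicate 3 of the sid2-2 mock libraries of 15 min. In mock, 18 to 29, 27 to 35, 34 to 39 and 37 to 39 members differed between fmo1-1 and sid2-2 at the 4 times, 0 to 7 changed over time in sid2-2 and 7 to 17 in fmo1-1. No direction of a called member was reversed in these alternatives. Replicate numbers do not pair the libraries, since 1 of 48 same-numbered pairs had an r over 0.1 (median 0.00852). With the number as a replicate block, 33, 33, 29 and 35 members fell in sid2-2 and 32, 35, 29 and 37 in fmo1-1, and 1 call of a member was lost over all comparisons. Low counts limit RSL2 and AT5G26080, and the cause of lost calls was not tested.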
